A study of Mus musculus with 35 samples.

Results

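The DNA methyltransferase genes Dnmt1, Dnmt3a, Dnmt3b and Dnmt3l were followed together with Uhrf1 through a time course of acute Dnmt1 deletion in mouse embryonic stem cells (ESCs). These 5 genes were chosen by name, as the enzymes and essential cofactors of cytosine methylation, from 26127 gene entries in the expression table. All 5 passed the filter on low values, which left 11615 genes for testing.

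Methylation of CG dinucleotides is copied to the new DNA strand at replication by DNMT1, which UHRF1 brings to hemimethylated sites. New methylation is placed by DNMT3A and DNMT3B, and DNMT3L, which has no catalytic activity of its own, binds and stimulates both. ESCs in serum carry high genome methylation and express all 5 genes, and the cells survive without any of the enzymes, which makes them a common model for the loss of DNA methylation.

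The samples were 35 total RNA libraries from ESCs titled E14. Of these, 17 were labelled wild type (WT, titled as controls) and 17 Dnmt1 KO, at days 0, 1, 3, 6, 9, 11, 17 and 25 after induction, with 3 libraries of each genotype at day 1 and 2 at every other day. The remaining library came from Dicer KO ESCs, for which the labels give no day and no induction. The study's methods describe Dnmt1 loxP/loxP ESCs of strain C57BL/6 and do not name E14. Its Dicer KO line was made from these cells and is listed as Dnmt1 loxP/loxP too. In the study's methods the conditional Dnmt1 allele was deleted by Cre recombinase, switched on with 4-hydroxytamoxifen (4OHT), in cells grown in serum and LIF with or without feeder cells. Lines edited with Cas9 were made on feeder cells and grown out of single cell colonies, so the Dicer KO library may stand for 1 clone. The labels do not say whether WT cells received 4OHT, or which cultures had feeders.

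Levels are given in RPKM, reads per kilobase of exon scaled to the library's mapped reads, which is a scale per length, so that levels of different genes can be set side by side. Libraries held 24.3 to 72.1 megareads mapped. The share of them that fell in exons split the libraries into 2 sets. In 20 libraries (days 0, 3, 6 and 9, and the first 2 replicates of day 1) the share was 20.2% to 22.0%, and in 15 (the third day 1 replicate of each genotype, days 11, 17 and 25, and Dicer KO) it was 44.1% to 48.8%. RPKM divides by all mapped reads, whether in exons or not, so levels of different days were tested against each other only within a set, and values given across the sets are a description. The 8 ESC markers, among them Pou5f1 and Sox2, were present in every library, with none at 0 and a summed level of 631 to 1856 RPKM.

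Both day 6 groups went against their labels in the deleted gene itself: Dnmt1 was low in the libraries labelled WT and high in those labelled KO. The labels were kept, and day 6 was left out of every average over days. The third day 1 pair of libraries stood apart from the other day 1 replicates in all 4 undeleted genes, and it widened the estimate of the spread that all groups share, so tests of the 5 genes over days are given with this pair and without it. For single days and for lists of related genes, the counts called are given in both fits. The differences are on the scale log2(RPKM + 0.1), KO minus WT, and adjusted p-values are from limma with Benjamini-Hochberg adjustment over all genes tested.

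**Figure D1:**
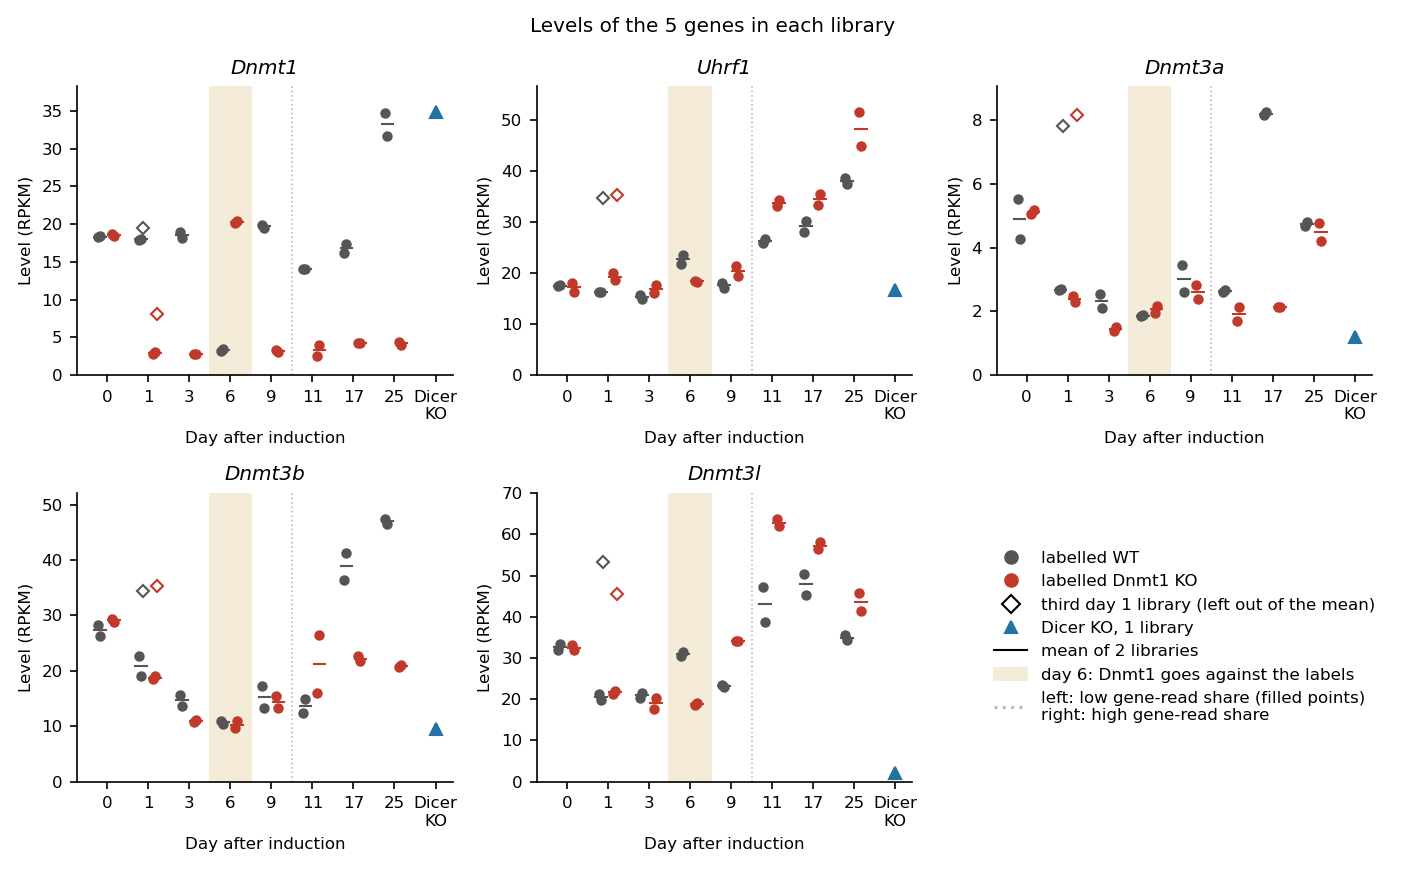
Level in RPKM (vertical axes, linear from 0) of each gene in every library against the day after induction, with libraries labelled WT in grey, Dnmt1 KO in red and the single Dicer KO library as a blue triangle, short lines for means of 2 libraries and open diamonds for the third day 1 pair. Dnmt1 was at 2.58 to 4.40 RPKM in KO libraries of days 3, 9, 11, 17 and 25 and at 14.1 to 34.8 RPKM in WT, while Dnmt3b split between genotypes at days 17 and 25 and Dnmt3l was near 2 RPKM in Dicer KO alone.

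Dnmt1 lies on chromosome 9 (NCBIM37, 20757317 to 20711650, minus strand). Before induction its level was the same in both genotypes, at 18.3 and 18.4 RPKM in WT and 18.7 and 18.5 RPKM in KO. At day 1 the first 2 KO libraries were at 2.86 and 3.04 RPKM against 17.9 and 18.1 RPKM in WT, and the third KO library was at 8.13 RPKM against 19.5 RPKM in its WT counterpart. The deleted gene had therefore lost most of its RNA within a day, and less so in the third library. The day 1 difference was -2.13 (SE 0.241, limma adjusted p = 0.00014), and -2.57 without the third pair. This was the single gene of all tested that was called at day 1 (0.00861% of genes).

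From day 3 on, Dnmt1 stayed low in KO, with means from 2.81 RPKM at day 3 to 4.22 RPKM at days 17 and 25, which lie in different exon-share sets. It measured 2.84 and 2.78 RPKM at day 3 against 19.0 and 18.1 RPKM in WT. Day 9 gave 3.32 and 3.12 RPKM against 19.9 and 19.5 RPKM, and day 11 gave 2.58 and 3.97 RPKM against 14.06 and 14.07 RPKM. The KO libraries held 4.25 and 4.201 RPKM at day 17, then 4.40 and 4.04 RPKM at day 25. No KO value came near a WT value at any of these days. The WT level at day 17 was 16.2 and 17.4 RPKM, and at day 25 it rose to 34.8 and 31.6 RPKM. The difference averaged over days 3, 9, 11, 17 and 25 was -2.45 (SE 0.132, limma adjusted p = 1.9e-12, and 2.2e-20 without the third day 1 pair), and between -2.95 and -1.97 at the single days. The values sum all exons of the gene, so a transcript that keeps the exons outside the deletion and RNA from cells that escaped deletion cannot be told apart.

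In the day 6 libraries labelled WT, Dnmt1 was at 3.22 and 3.40 RPKM, close to the 2.78 to 3.32 RPKM of the KO libraries at days 3 and 9. Those labelled KO held 20.2 and 20.4 RPKM, above both day 9 WT libraries. Taken as labelled, the difference was 2.58 (limma adjusted p = 5.1e-06).

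The rise of Dnmt1 in WT cells between days 17 and 25 was 0.98 (SE 0.296, limma adjusted p = 0.0219, 19.2% of genes called in this comparison). It was not called when any 1 of the 4 libraries was left out (adjusted p between 0.0688 and 0.142), and without the third day 1 pair it was called with an adjusted p of 2.8e-07 (share of all genes not given). In KO the level differed by less than 0.01 on the log2 scale over the same days, in a comparison with 5.52% of genes called.

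The promoters of the genes differ in their CG content, and the loss of Dnmt1 removes methylation from CG dinucleotides. A window of each of Dnmt1, Uhrf1, Dnmt3b and Dnmt3l is therefore shown. Those of Dnmt3a are counted below but not printed. Each window runs from 250 bases before to 50 bases after a RefSeq transcript start (build GRCm38.p6), in the direction of transcription, with CG in capitals. The Dnmt1 window lies at chr9:20952574-20952873 (minus strand), that of Uhrf1 at chr17:56304063-56304362 (plus), that of Dnmt3b at chr2:153649199-153649498 (plus) and that of Dnmt3l at chr10:78042037-78042336 (plus).
Dnmt1: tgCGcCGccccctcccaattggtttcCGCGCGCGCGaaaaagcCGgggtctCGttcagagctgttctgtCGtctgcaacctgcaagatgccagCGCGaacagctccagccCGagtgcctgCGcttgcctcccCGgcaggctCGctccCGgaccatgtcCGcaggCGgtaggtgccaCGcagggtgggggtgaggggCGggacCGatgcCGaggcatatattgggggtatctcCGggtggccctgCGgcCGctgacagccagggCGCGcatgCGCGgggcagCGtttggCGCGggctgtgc
Uhrf1: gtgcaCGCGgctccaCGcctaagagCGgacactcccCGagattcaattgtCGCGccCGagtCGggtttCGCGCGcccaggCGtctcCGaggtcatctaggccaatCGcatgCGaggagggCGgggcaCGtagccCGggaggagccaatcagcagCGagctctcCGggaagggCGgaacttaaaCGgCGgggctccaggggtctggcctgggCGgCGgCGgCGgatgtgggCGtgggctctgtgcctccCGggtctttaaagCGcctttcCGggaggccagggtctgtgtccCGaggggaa
Dnmt3b: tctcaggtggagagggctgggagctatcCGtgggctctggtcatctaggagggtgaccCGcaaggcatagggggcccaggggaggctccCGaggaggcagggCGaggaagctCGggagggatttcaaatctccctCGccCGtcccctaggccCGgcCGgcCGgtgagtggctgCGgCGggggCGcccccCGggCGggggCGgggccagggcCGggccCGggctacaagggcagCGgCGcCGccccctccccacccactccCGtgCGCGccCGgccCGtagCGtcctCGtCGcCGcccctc
Dnmt3l: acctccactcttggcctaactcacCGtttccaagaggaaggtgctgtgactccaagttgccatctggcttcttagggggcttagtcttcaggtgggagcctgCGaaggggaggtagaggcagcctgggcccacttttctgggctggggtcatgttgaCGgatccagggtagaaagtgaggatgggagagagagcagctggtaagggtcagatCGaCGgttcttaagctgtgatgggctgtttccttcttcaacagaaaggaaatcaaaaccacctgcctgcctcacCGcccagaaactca

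The windows of Dnmt1 and Uhrf1 each held 33 CG dinucleotides and that of Dnmt3b 30, while that of Dnmt3l held 6. Over all 32851 RefSeq windows of this length the median was 7, and 8.56% held at least 33. The 3 Dnmt3a windows held 46, 47 and 18. The further windows held 12 for Uhrf1, 12 and 2 for Dnmt1, and 4 and 3 for Dnmt3l. The RefSeq start of the Uhrf1 window shown lies 992 bases inside the gene as the table places it, while that of the window with 12 lies 16 bases inside. For the Dnmt1 window shown the start lies 250 bases inside, so the whole window is within the gene. For the Dnmt3l window shown it lies 340 bases inside. Every window of the 5 genes matched NCBIM37 once, and each gene except Dnmt3b has further RefSeq starts, so which start these cells used was not tested. The letters TTTCGCGC are a form of the site bound by E2F factors. They were found on the opposite strand of the Dnmt1 window shown, 219 to 212 bases before its RefSeq start. In the Uhrf1 window shown they were on the same strand, 185 to 178 bases before its RefSeq start. Both places lie inside the genes as the table places them. The other Uhrf1 window, at the start the table gives, did not hold these letters, nor did the other 2 Dnmt1 windows. On either strand they occur in 0.323% of all windows. The related letters TTTGGCGC occurred once, in the Dnmt1 window 34 to 41 bases into the transcript, against 0.514% of all windows. Neither was present in the windows of Dnmt3a, Dnmt3b or Dnmt3l, and TTTCCCGC, in 1.07% of all windows, was in none of the 5 genes. None of these motifs overlapped another.

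Uhrf1, on chromosome 17 (NCBIM37, 56442744 to 56462909, plus strand), encodes the partner that places DNMT1 at replicated DNA. It was slightly higher in KO than in WT at all 5 days analysed after induction. At day 3 the KO libraries were at 16.1 and 17.7 RPKM against 15.7 and 14.8 RPKM in WT. At day 9 they were at 21.3 and 19.3 RPKM against 18.1 and 17.06 RPKM, and at day 11 at 33.0 and 34.3 RPKM against 25.9 and 26.6 RPKM. The later days had the same order. Day 17 gave 33.4 and 35.5 RPKM in KO against 28.0 and 30.2 RPKM in WT, and day 25 gave 51.4 and 44.8 RPKM against 38.7 and 37.4 RPKM.

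The lowest Uhrf1 value in KO thus lay above the highest in WT at each of days 3, 9, 11, 17 and 25. Of all genes tested, 7.98% had this order at all 5 days. The mean was 1.104 to 1.28 times that of WT at each day. The average difference was 0.26 (SE 0.125, limma adjusted p = 0.179), which did not pass the threshold. Without the third day 1 pair the same difference had an adjusted p of 1.1e-06, in a fit that called 58.5% of all genes. Day 17 was the weakest against scaling, where centring each library on its median gene reduced the difference from 0.24 to 0.06.

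Before induction and at day 1, Uhrf1 overlapped between genotypes, with 17.5 and 17.6 RPKM in WT and 18.1 and 16.3 RPKM in KO at day 0. At day 1 the first 2 libraries held 16.28 and 16.29 RPKM in WT and 19.9 and 18.6 RPKM in KO, and the third pair 34.6 and 35.2 RPKM. The overlap at day 1 came from the third pair alone, whose WT library exceeded the first 2 KO libraries. At day 6 the libraries labelled WT, in which Dnmt1 was low, held 21.8 and 23.5 RPKM of Uhrf1, and those labelled KO 18.5 and 18.3 RPKM. The group with little Dnmt1 thus had the higher Uhrf1 at day 6. This order, KO as labelled wholly below WT, was shared by 41.2% of all genes tested at that day, and 28.4% had the opposite one.

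Dnmt3a, on chromosome 12 (NCBIM37, 3806007 to 3914443, plus strand), encodes a de novo methyltransferase. It had the lowest level per length of the 5 genes in 31 of the 34 WT and KO libraries, from 1.40 to 8.25 RPKM over all of them. Its annotated exons join to 16642 bases, at least 3 times those of the other 4 genes, and the level per length depends on that union. At day 3 the KO libraries were at 1.40 and 1.51 RPKM and the WT libraries at 2.56 and 2.11 RPKM. At day 9 the genotypes overlapped, at 2.82 and 2.40 RPKM in KO and 3.45 and 2.60 RPKM in WT. Day 11 again separated them, with 1.69 and 2.15 RPKM in KO against 2.60 and 2.68 RPKM in WT. At single days from day 3 on, day 6 aside, KO lay wholly below WT in 20.2% to 33.35% of all genes tested and wholly above in 31.9% to 49.5%, so a gap between 2 and 2 libraries is common in these data.

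Day 17 showed the widest gap of any undeleted member at any day. WT held 8.17 and 8.25 RPKM, while KO held 2.144 and 2.151 RPKM. The KO mean was 0.262 of the WT mean, a difference of -1.89 (SE 0.432, limma adjusted p = 0.00462), and Dnmt3a was the 1 undeleted gene of 4 called at day 17, where 10.4% of all genes were called. Leaving out any 1 of the 4 libraries kept the call (adjusted p between 0.0376 and 0.0408), as did leaving out the third day 1 pair (adjusted p = 1.6e-10). At day 25 the groups overlapped, with 4.67 and 4.79 RPKM in WT and 4.76 and 4.22 RPKM in KO, a difference of -0.08 (SE 0.432, 95% interval -0.97 to 0.82).

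Averaged over the 5 days, the difference of Dnmt3a was -0.65 (SE 0.193, adjusted p = 0.0195 by limma). It was called with each of the 20 libraries left out in turn (adjusted p between 0.0215 and 0.0467), and it was not called with day 6 included as labelled (-0.52, adjusted p = 0.0627). The day 17 effect lay below that of day 11, with a difference of -1.44 (limma adjusted p = 0.538), and the day 25 effect lay 1.81 above that of day 17 (adjusted p = 0.0597). These differences between days did not pass the threshold with the third day 1 pair in the fit. Without that pair their adjusted p-values were 3.5e-05 and 1.7e-07. That fit called far more genes, 41.0% at day 17 and 66.0% at day 25, and its share for comparisons between days is not given here.

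Dnmt3b, on chromosome 2 (NCBIM37, 153475186 to 153513466, plus strand), encodes the other de novo enzyme, which is prominent in pluripotent cells. It was below WT in KO at day 3, above it at day 11 and far below it at days 17 and 25. KO held 10.7 and 11.09 RPKM at day 3 against 15.6 and 13.7 RPKM in WT, with no overlap. The groups overlapped at day 9, at 15.5 and 13.2 RPKM in KO and 17.3 and 13.2 RPKM in WT. At day 11 the order was the opposite, with 16.0 and 26.4 RPKM in KO above 12.4 and 14.9 RPKM in WT. The KO libraries of day 11 differed more from each other than the WT libraries did, and the difference of 0.59 was not called (SE 0.281, limma adjusted p = 0.326).

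The late days showed the reverse of day 11. WT held 36.4 and 41.3 RPKM at day 17 and 47.4 and 46.5 RPKM at day 25. KO held 22.6 and 21.8 RPKM at day 17, and 20.7 and 21.1 RPKM at day 25. All 4 late KO libraries were below all 4 late WT libraries. At the single days KO lay wholly below WT in 22.0% (day 17) and 33.35% (day 25) of all genes tested. The share with this order over both days was not counted. At day 17 the difference was -0.80 (SE 0.281, limma adjusted p = 0.0768), and at day 25 it was -1.17 (SE 0.281, adjusted p = 0.00426). Dnmt3b was the 1 undeleted gene of 4 called at day 25, where 20.9% of all genes were called, and it kept the call without any 1 of the 4 libraries and without the third day 1 pair (adjusted p = 2.1e-06). The KO mean at day 25 was 0.445 of the WT mean.

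The average over the 5 days was -0.37 (SE 0.126, limma adjusted p = 0.0395), so that 2 of the 4 undeleted genes, Dnmt3a and Dnmt3b, were called over days, where 18.9% of all genes were called. This call for Dnmt3b was not firm. It held in 5 of the 20 fits without 1 library, those without WT day 9 replicate 2, KO day 9 replicate 1, WT day 11 replicate 1, KO day 11 replicate 2 or WT day 17 replicate 1, and was lost in the other 15 (adjusted p up to 0.108 over all 20). It was also lost with day 6 as labelled (-0.32, adjusted p = 0.0772), a fit over days in which 11.4% of genes and none of the 4 undeleted genes were called. Without the third day 1 pair it was called, with an adjusted p of 0.00011. The day 17 effect differed from that of day 11 by -1.40 (adjusted p = 0.134). That difference was called without KO day 11 replicate 1 (-1.75, adjusted p = 0.0335), and in the fit without the third day 1 pair (adjusted p = 0.00023). With all 34 libraries, the comparison of effects between days 17 and 11 called 0.715% of genes, and that between days 25 and 17 called 11.4%. The shares without the third day 1 pair are not given for these comparisons.

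Dnmt3l, on chromosome 10 (NCBIM37, 77504692 to 77526367, plus strand), encodes the cofactor of both de novo enzymes and was the most abundant of the 5 genes per length in 27 of the 34 libraries. From day 9 on, it was higher in KO than in WT. At day 9 the KO libraries both held 34.1 RPKM, against 23.5 and 22.9 RPKM in WT. At day 11 they held 63.8 and 61.9 RPKM against 47.2 and 38.8 RPKM. Day 17 gave 56.4 and 58.1 RPKM in KO against 50.4 and 45.4 RPKM in WT, and day 25 gave 45.6 and 41.4 RPKM against 35.5 and 34.3 RPKM. The groups did not overlap at any of these 4 days, an order that 10.3% of all genes tested shared.

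At day 3 the order of Dnmt3l was the opposite, with 17.7 and 20.2 RPKM in KO, both below 20.3 and 21.6 RPKM in WT, by a margin smaller than the gap between replicates. The average difference over days was 0.31 (SE 0.150, limma adjusted p = 0.179) and did not pass the threshold, and at the single days it lay between -0.14 and 0.55. Without the third day 1 pair the average was called (adjusted p = 1.9e-07). In that fit Dnmt3l was called at days 9, 11, 17 and 25 (adjusted p between 1.4e-05 and 0.0115). The day 9 effect differed from that of day 3 by 0.69 (limma adjusted p = 1), in a comparison with 0.146% of genes called. Centring on the median gene reduced the day 17 difference from 0.26 to 0.08. At day 6 the libraries labelled WT, low in Dnmt1, held 30.5 and 31.5 RPKM and those labelled KO 18.7 and 19.1 RPKM, an order that 41.2% of all genes tested had at that day.

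**Figure D2:**
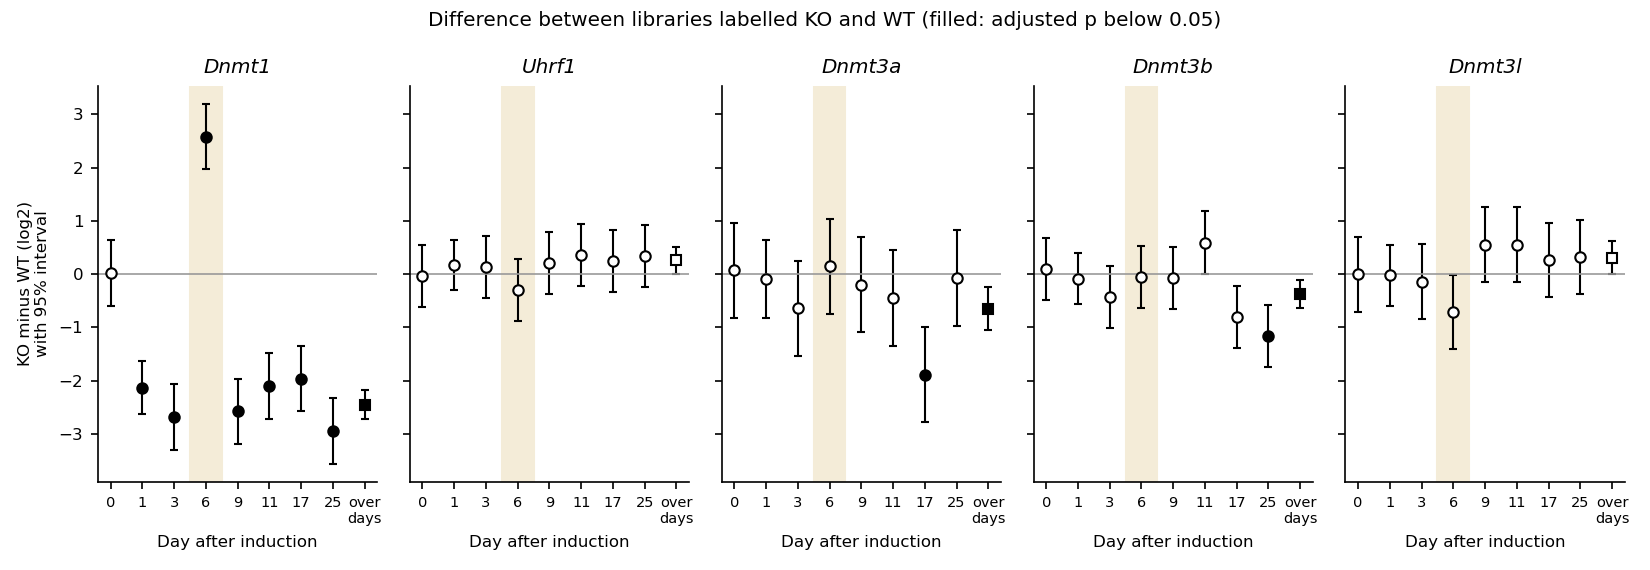
Difference between libraries labelled KO and WT in log2(RPKM + 0.1) (vertical axes) for each gene at each day and averaged over days 3, 9, 11, 17 and 25 (squares), with 95% intervals from limma and filled symbols where the adjusted p was below 0.05. Apart from Dnmt1, the called values were Dnmt3a at day 17 (-1.89) and over days (-0.65) and Dnmt3b at day 25 (-1.17) and over days (-0.37), and the shaded day 6 is shown as labelled.

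None of the 4 undeleted genes was called at day 0 (0.0% of all genes called by limma), day 1, day 3 (0.663% of genes), day 6 as labelled (2.84%), day 9 (3.29%) or day 11 (5.62%). At day 0, 9 of the 11615 genes tested had an unadjusted limma p under 0.05. That is far fewer than this threshold would give with no difference at all, so the fit of all 34 libraries is conservative. A gene not called in it is not thereby shown to be unchanged. Without the third day 1 pair, the number called rose for these genes as it did for the genome. It was 1 of 4 at day 3 (11.9% of all genes), 2 at day 9 (28.0%), 4 at day 11 (35.8%), 4 at day 17 (41.0%), 3 at day 25 (66.0%) and 4 over days. The sign of each difference over days was the same in both fits, since the pair enters only the estimate of the spread. Over days, genes called higher outnumbered those called lower by 1528 to 668 in the fit of all 34 libraries, and centring on the median gene changed this to 2031 against 2248. At day 25 the same choice turned 1115 higher and 1315 lower into 3005 and 2052. The median gene lay 0.13 above 0 at day 25 before centring, and Dnmt3b at -1.17 and Dnmt3l at 0.32 stood on opposite sides of it.

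Ratios of 2 of the 4 undeleted genes within a library do not depend on how libraries are scaled to each other. They are formed from the same libraries and values as the differences above, with those differences known, so they restate them on another scale and are not independent evidence of a direction. The Dnmt3l to Dnmt3a ratio ranged from 5.50 to 18.1 in the WT libraries of days 3, 9, 11, 17 and 25, with a median of 7.75, and from 9.59 to 37.8 in KO, with a median of 13.8. It was higher in KO at all 5 days, by 0.98 on the log2 scale on average. At day 17 it was 5.84 ± 0.472 (SD, n = 2) in WT and 26.7 ± 0.519 (SD, n = 2) in KO. In an exact permutation test of the genotype labels within days (two-sided, 7776 relabellings) p was 0.00026, the smallest this design allows, and 0.00077 after adjustment over the 6 ratios.

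The Uhrf1 to Dnmt3a ratio behaved alike. It had a median of 6.80 in WT and 11.6 in KO, and was higher in KO at all 5 days, by 0.93 on average (exact permutation p = 0.00026, adjusted p = 0.00077). Against Dnmt3b, the Dnmt3l ratio was higher in KO by 0.68 (exact permutation test, adjusted p = 0.00874) and the Uhrf1 ratio by 0.63 (adjusted p = 0.00926), each at 4 of the 5 days, with day 11 the exception. All 4 of these ratios passed the threshold with any 1 of the 20 libraries left out. The ratio of the 2 de novo enzymes differed by 0.30 (exact permutation test, adjusted p = 0.190) and that of Uhrf1 to Dnmt3l by -0.05 (adjusted p = 0.479), and neither passed.

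**Figure D3:**
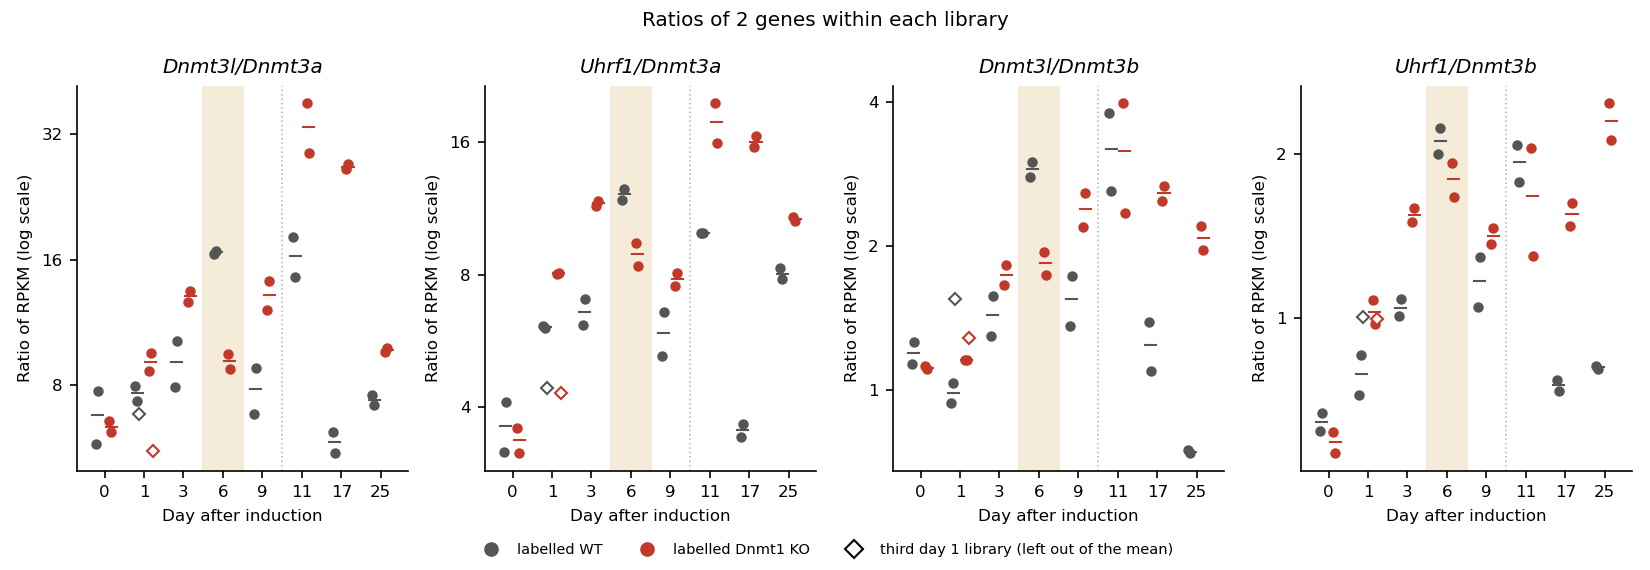
Ratio of the RPKM of 2 genes within each library (vertical axes, log scale) against the day after induction, with libraries labelled WT in grey, KO in red, short lines for means of 2 libraries and open diamonds for the third day 1 pair. The Dnmt3l to Dnmt3a and Uhrf1 to Dnmt3a ratios were higher in KO than in WT at days 3, 9, 11, 17 and 25, and at the shaded day 6 the libraries labelled WT, low in Dnmt1, were the higher ones.

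The levels also differed between days in cells that kept Dnmt1. Culture time and other differences between the days, such as harvest or library preparation, cannot be told apart. In WT, Dnmt3b rose by 1.50 between days 11 and 17 (SE 0.281, limma adjusted p = 0.00086) and Dnmt3a by 1.60 (SE 0.432, adjusted p = 0.0178), in a comparison that called 9.96% of genes. The Dnmt3b rise was called without any 1 of the 4 libraries, while the Dnmt3a rise was lost in each of these 4 fits (adjusted p between 0.0945 and 0.107). In KO the corresponding changes were 0.11 for Dnmt3b (95% interval -0.48 to 0.69) and 0.16 for Dnmt3a (95% interval -0.73 to 1.06), in a comparison with 3.42% of genes called. The genotype difference in this change is that between the effects of days 17 and 11 given above, which did not pass the threshold for either enzyme with the third day 1 pair in the fit and did without it.

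Levels of the de novo enzymes at day 0 are set beside those of days 6 and 9, within 1 set of libraries. Dnmt3b was at 28.3 and 26.4 RPKM in WT and 29.4 and 28.9 RPKM in KO on day 0. At day 6 it was at 10.9 and 10.5 RPKM in the libraries labelled WT and 9.60 and 10.9 RPKM in those labelled KO. From day 0 to day 9 Dnmt3b fell by 1.02 in KO (SE 0.281, limma adjusted p = 0.0439, 3.7% of genes called), a call lost when any 1 of the 4 libraries was left out (adjusted p between 0.149 and 0.361) and held without the third day 1 pair (adjusted p = 3.9e-05, share of all genes not given). The WT change of -0.85 over the same days was not called (adjusted p = 0.558, 0.0947% of genes called), and the difference between the 2 changes was not tested. Dnmt3a went from 5.53 and 4.28 RPKM in WT and 5.04 and 5.17 RPKM in KO at day 0 to 1.85 and 1.88 RPKM and 1.96 and 2.18 RPKM at day 6. Its change from day 0 to day 9 was not called in either genotype, at -0.68 in WT (limma adjusted p = 1) and -0.95 in KO (adjusted p = 0.366).

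The third day 1 pair differed from the other day 1 libraries in all 4 undeleted genes. Between the genotypes of this pair these genes were close, except Dnmt3l, which was lower in KO. Dnmt3a was at 7.81 RPKM in its WT and 8.16 RPKM in its KO library, against 2.30 to 2.70 RPKM in the other 4. Dnmt3b was at 34.5 and 35.4 RPKM against 18.5 to 22.6 RPKM, and Dnmt3l at 53.4 and 45.6 RPKM against 19.8 to 22.0 RPKM. The exon share of this pair was 47.7% in WT and 46.9% in KO, that of the late days and not of the other day 1 libraries, and its part in the gap was not tested.

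In Dicer KO cells, which lack the enzyme that processes small RNAs but carry no label of Dnmt1 deletion, the de novo genes and Uhrf1 were below every WT and KO library of the same exon-share set. With 1 library there is no replicate check, and the values are set beside the 6 WT libraries of days 11, 17 and 25, which belong to that set. Of all genes tested, 23.8% were below all 14 WT and KO libraries of the set in this library and 24.8% above all of them, so a value outside their range is common here. Dnmt3l was at 2.05 RPKM (158 reads), 0.0489 of the WT mean of 41.9 RPKM, and the lowest of the 14 libraries held 34.3 RPKM. Dnmt3a was at 1.205 RPKM and Dnmt3b at 9.56 RPKM, 0.232 and 0.288 of the WT means, where the lowest of the 14 held 1.69 and 12.4 RPKM. Dnmt1 was at 34.8 RPKM, level with the highest WT library (34.8 RPKM), and Uhrf1 was at 16.6 RPKM, against 25.9 RPKM in the lowest of the 14.

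This library also differed in its cell markers. The summed level of 8 fibroblast markers, which would include feeder cells, was 145 RPKM with none at 0, against 0.837 to 2.66 RPKM in the 6 WT libraries. Acta2 alone made up 118 RPKM of that sum. Thy1 was at 8.56 RPKM, Col1a2 at 7.29 RPKM, Col1a1 at 5.21 RPKM and Col3a1 at 3.75 RPKM. Postn was at 1.77 RPKM, Dcn at 0.380 RPKM and Lum at 0.0748 RPKM. Its ESC markers summed to 1290 RPKM, between 964 and 1856 RPKM in those WT libraries. Dppa3, which encodes a maternal factor that shields DNA from methylation, was at 0.0435 RPKM in Dicer KO and at 8.51 RPKM or more in those WT libraries. The part of other cell types or of culture history in the low Dnmt3l was not tested.

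The fibroblast markers moved with genotype at some days too. Their sum was 21.7 to 28.9 RPKM in the KO libraries of days 3 and 9 and 10.9 to 12.8 RPKM in WT, and 11.7 and 11.8 RPKM against 1.07 and 1.09 RPKM at day 17. Day 11 had the opposite order, with 1.97 and 1.098 RPKM in KO against 2.66 and 2.42 RPKM in WT, and there Thy1 was called lower (-1.98, limma adjusted p = 0.00037) and Acta2 higher (2.32, adjusted p = 0.00522). The sum was 0.837 to 1.51 RPKM over both genotypes at day 25, where Dnmt3b differed most. At day 17 nearly all of the KO sum was Acta2, at 11.09 RPKM on average, with Col1a1 at 0.0396 RPKM and Col3a1 at 0.0077 RPKM. Of 5 fibroblast markers tested over days, Acta2 alone was called (2.03, limma adjusted p = 4.2e-07), and 4 of the 5 were called higher without the third day 1 pair. Their part in the results for the 5 genes was not tested, and in bulk RNA fewer cells of a type and less RNA per cell cannot be told apart.

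Across the 34 WT and KO libraries, with each gene centred within its set, Dnmt3a and Dnmt3b were the most alike members (Pearson r = 0.78). Dnmt1 had an r of 0.55 with Dnmt3a, 0.48 with Dnmt3b, -0.31 with Dnmt3l and -0.42 with Uhrf1, and the other 5 pairs lay between -0.01 and 0.16. These points share genotype, day and the third day 1 pair, and the values are a description. Of 9564 genes, those most like Dnmt3a were Zfp740 (r = 0.93), Sf3a3 (0.90) and Isy1 (0.89), and those most like Dnmt3b were Nnt (0.93), Gm15964 (0.90) and Nol9 (0.90). Dnmt1 was most like Zmym3 (0.87), Lss (0.79) and 4930483K19Rik (0.78). Dnmt3l had Eif2b5 (0.85), Slc25a5 (0.84) and Hadha (0.83), and Uhrf1 had Tgm1, Dgkz and Cd209c (each 0.82).

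The genes around DNA methylation are read against the 18.9% of all genes called over days and the 20.9% called at day 25, and against 58.5% and 66.0% without the third day 1 pair. Of 14 maintenance partners, such as Pcna, Usp7 and Hells, none was called over days, with a median difference of -0.0036 against 0.06 over all genes, and the lowest adjusted p was that of Rb1 (0.30, adjusted p = 0.0600). At day 17 Rb1 was called higher (0.94, limma adjusted p = 0.0138), and at day 25 Setd7, a histone methyltransferase that also methylates DNMT1, was called lower (-1.48, adjusted p = 2.9e-05). From day 17 to 25 Setd7 changed by -1.06 in KO (limma adjusted p = 0.00266), while its WT change of 0.56 was not called (adjusted p = 0.0692). Without the third pair, 2 of the 14 were called higher and 4 lower over days.

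None of 12 regulators of de novo methylation and of protected loci was called over days, of which Dppa3 came closest (0.43, adjusted p = 0.0785). At day 25, 3 of them were called, Dppa3 higher (1.16, limma adjusted p = 0.0275), and Kdm2b (-0.998, adjusted p = 0.00537) and Trim28 (-0.67, adjusted p = 0.0214) lower. Kdm2b encodes a CG-binding histone demethylase and Trim28 a corepressor that holds methylation at imprinted loci and repeats. Without the third pair, 2 of the 12 were called higher and 8 lower over days.

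None of 7 tested methyl-CpG readers was called over days, with Zbtb38 at 0.31 (adjusted p = 0.0519), nor was Trdmt1, a family member that methylates tRNA (0.19, adjusted p = 0.593). Mbd2 was called lower at day 25 (-0.64, limma adjusted p = 0.00594). From day 17 to 25 Mbd2 changed by 0.49 in WT (limma adjusted p = 0.0377) and by -0.52 in KO (adjusted p = 0.0635). None of Tet1, Tet2, Tet3 and Tdg, which oxidise and remove methylated cytosine, was called over days, with differences of -0.40 to -0.09, and Tet3 was called lower at day 25 (-1.96, adjusted p = 0.00193). Its level rose by 1.99 in WT from day 17 to 25 (limma adjusted p = 0.00184), while the KO change of -0.21 was not called. Without the third pair, 1 reader was called higher and 2 lower over days, Trdmt1 was called higher, and 3 of the 4 oxidation and removal genes were called lower.

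Of 10 genes of the cycle that supplies the methyl donor, 2 fell over days, Shmt2 (-0.30, limma adjusted p = 0.0106) and Mthfd1 (-0.31, adjusted p = 0.0428), both enzymes of folate metabolism, and none was called at day 25. Without the third pair 1 was called higher and 5 lower over days. Dnmt1 and Uhrf1 are themselves transcribed mostly in S phase, and of 18 S phase genes 1 was called over days, Cdt1 (-0.36, adjusted p = 0.0134), and the list's median was 0.02. At day 25, 3 of the 18 were called, 1 higher and 2 lower, beside 20.9% of all genes. Without the third pair 6 were called higher and 4 lower over days. Both counts over days, 2 of 10 and 1 of 18, were near or below the share of all genes called.

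Counts of pluripotency and marker genes over days are again read beside the 18.9% of all genes called. Of 8 naive pluripotency genes 2 rose over days. These were Prdm14 (0.79, limma adjusted p = 0.00047), which encodes a repressor of Dnmt3b and Dnmt3l in ESCs, and Nanog (0.81, adjusted p = 0.0158). At day 25 Prdm14 differed by 1.98 (adjusted p = 0.00019) and Nanog by 2.23 (adjusted p = 0.00326). Dnmt3b was lower and Dnmt3l not lower in KO at that day, and no relation between these genes was tested. Of 4 formative pluripotency genes tested, 3 fell over days, Otx2 (-1.31, adjusted p = 2.1e-10), Utf1 (-0.60, adjusted p = 0.00196) and Pou3f1 (-0.51, adjusted p = 0.00224). Without the third pair, 5 of the 8 naive genes were called higher and all 4 formative genes lower. Over the marker lists, 1 of 8 ESC markers rose (Nanog), 1 of 4 tested primitive endoderm markers rose (Gata6, 0.30, adjusted p = 0.0101), and of 4 germ cell markers Dazl rose (1.98, adjusted p = 1.3e-14) and Sycp3 fell (-1.22, adjusted p = 3.4e-09).

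**Figure D4:**
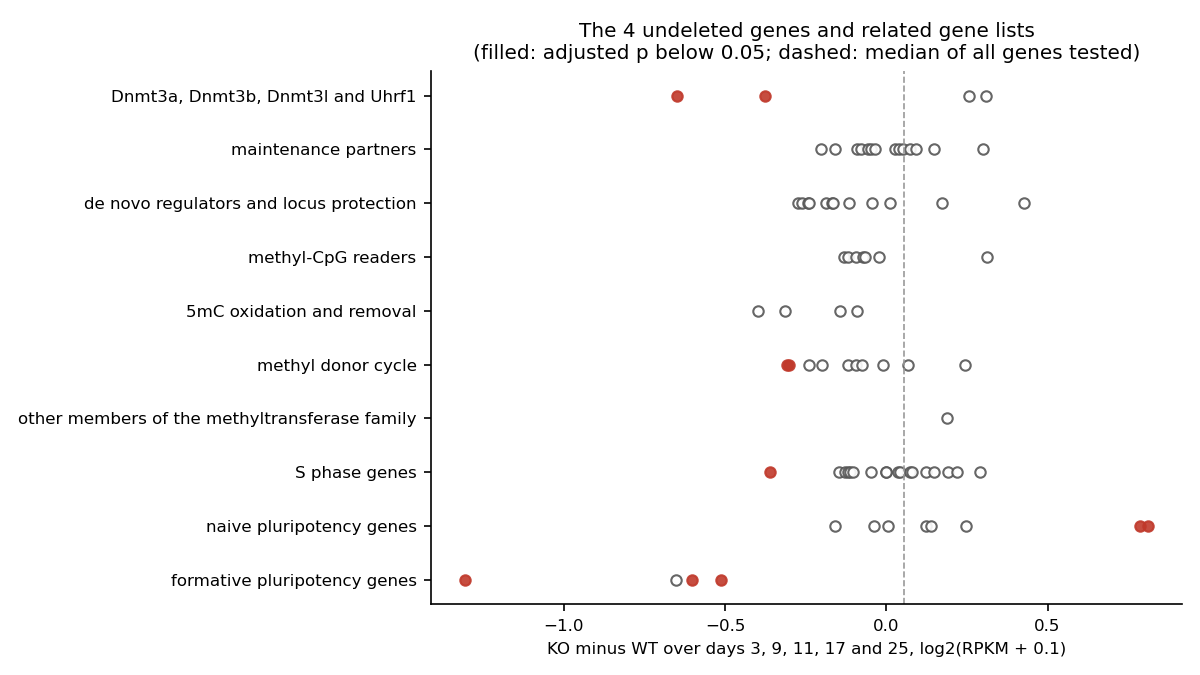
Difference between KO and WT averaged over days 3, 9, 11, 17 and 25, in log2(RPKM + 0.1) (horizontal axis), for the 4 undeleted genes and for each gene of the related lists, 1 circle per gene, filled where the limma adjusted p was below 0.05. Dnmt3a and Dnmt3b stand to the left and Dnmt3l and Uhrf1 to the right of the median of all genes (dashed, 0.06), while the maintenance partners, methyl-CpG readers and de novo regulators hold no filled circle in this fit of all 34 libraries.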

How the data were processed

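Total RNA libraries of ESCs titled E14 were trimmed by the authors with Trim Galore 0.3.5 and aligned with TopHat2 2.0.11 (per the submitters' processing notes) to NCBIM37. Alignments of mapping quality under 20 were discarded. Gene values were made in SeqMonk. The methods name log2 RPM, but the deposited gene values are linear RPKM: multiplied by exon length from the annotation of the same build, 99.51% to 99.74% of values below 20 reads came out within 0.1 of a whole read, which also gave the library depths. Whether counting used strand is not given in the sources used here, so antisense reads from Gm10485 (Dnmt3a), 7530422B04Rik (Dnmt3b) and Aire (Dnmt3l), which overlap those genes, cannot be told apart from theirs.

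Groups were taken from the labels. Genes with more than 1 RPKM in at least 2 of the 34 WT and KO libraries were fitted with limma 3.58.1 (R 4.3.3) on log2(RPKM + 0.1), with 1 mean per genotype and day and a trended prior. The fit and the exact test were tested on simulated data. An adjusted p below 0.05 was called. Ratios were tested in Python 3.11.15 by exact permutation. The 5 genes and the gene lists were chosen with earlier results of these data known. Named list genes are the 4 of lowest adjusted p over days, or the called ones over days or at the day given, and like genes are the 3 of highest Pearson r among genes with a mean log2 level of at least 0. The series describes its replicates as biological, but no label ties them to separate cultures, so p-values measure the spread between these libraries. In the fit of all 34 libraries that spread takes in the gap between the third day 1 pair and the other day 1 libraries. Gm14490, the other entry beside Trdmt1 in the list of further family members, was not analysed here. Alternatives covered the pseudocount, filter, scaling, the third day 1 pair, replicate block, exon-share set, fitted groups, voom on recovered reads, day 6 and each library in turn.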

Additional observations from a re-analysis of the deposited data

Results flagged for a closer look

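For Dnmt3b 2 untested pairs of days and 3 for Dnmt3l were picked out because every KO library lay on one side of WT at one day and on the other side at the other. For Dnmt3b the KO minus WT difference at day 11 was 1.02 above that of day 3, and at day 25 it was -1.76 against that of day 11. For Dnmt3l the difference was above that of day 3 by 0.69 at day 11, by 0.40 at day 17 and by 0.46 at day 25. None of these 5 differences between days was tested, and only that of Dnmt3b at day 25 against day 11 lay within 1 exon-share set. At these days and day 9, KO lay wholly above WT in 31.9% to 49.5% of all genes tested and wholly below in 20.2% to 33.35%. The share of genes with such a change of side was not counted. At day 3 the highest KO library of Dnmt3l held 20.23 RPKM and the lowest WT library 20.27 RPKM. A further pair of days for each gene met the same condition and was tested: the effect of Dnmt3b at day 17 against day 11 (-1.40, limma adjusted p = 0.134) and that of Dnmt3l at day 9 against day 3 (0.69, adjusted p = 1). Neither passed the threshold. Day 6 was not compared in this way because its libraries went against their labels in Dnmt1.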

How the results depend on the processing

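A pseudocount of 1 and no filter changed no call and no direction for the 5 genes. Replicate numbers did not pair libraries, since the deviations of same-numbered WT and KO libraries correlated at -0.16 to 0.26 over the days, so no numbers were crossed, and the replicate block result is given here only. With the replicate block, Dnmt3l (0.31) and Uhrf1 (0.26) over days, Dnmt3l (0.26), Uhrf1 (0.24) and Dnmt3b (-0.80) at day 17, and Dnmt3l (0.32) and Uhrf1 (0.33) at day 25 became called. The same values became called without the third day 1 pair and with the exon-share set as a covariate. In fits of only the groups compared the same held except for Dnmt3l and Uhrf1 at day 17. With voom on recovered reads Dnmt3l (0.27) and Uhrf1 (0.22) over days and Dnmt3b at day 17 (-0.83) became called, and with median centring Dnmt3l (0.23) and Uhrf1 (0.18) over days, Dnmt3b at day 17 (-0.99), and Dnmt3l (0.32) and Uhrf1 (0.34) at day 25. At single days outside 17 and 25, Dnmt3l at days 6, 9 and 11 and Dnmt3b at day 11 became called with median centring, the replicate block, voom, the exon-share set and without the third pair, and so did Uhrf1 at day 11 except with median centring (adjusted p = 0.0504). Dnmt3a at days 3 and 11 became called with the replicate block, the exon-share set and without the third pair. Voom reduced the day 25 differences of Dnmt3l from 0.32 to 0.18 and of Uhrf1 from 0.33 to 0.20. With day 6 as labelled Dnmt3a (-0.52) and Dnmt3b (-0.32) over days were no longer called, and the Uhrf1 to Dnmt3l ratio changed sign (0.0262). The cause was not tested in any of these cases, beyond the smaller spread estimated without the third pair. Leaving out 1 library gave -0.45 to -0.30 for Dnmt3b over days, where 15 of 20 fits lost the call.

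Sign changes beyond these were all of uncalled values near 0. Median centring gave 0.0114 for Dnmt3b at day 6 and 0.0245 for Dnmt1 in KO from day 17 to 25. Leaving out 1 library gave ranges of -0.16 to 0.0079 for Dnmt3a at day 25, -0.39 to 0.0020 for Dnmt3a and -0.27 to 0.12 for Dnmt3b at day 9, and -0.15 to 0.0317 for Dnmt3b at day 6. From day 11 to 17 in KO it gave -0.0043 to 0.33 for Dnmt3a and -0.25 to 0.47 for Dnmt3b, and from day 17 to 25 -0.0646 to 0.0566 for Dnmt1. In the fit of all 34 libraries, a difference of 0.3 in 1 gene at 1 day is close to its SE of 0.280 to 0.432, which the third day 1 pair widened. Without that pair the SE of the 4 undeleted genes at day 25 was 0.0744 (Uhrf1) to 0.156 (Dnmt3b), with the same 2 libraries a group. The count of genes called over days went from 1528 higher and 668 lower to 4381 higher and 2397 lower without the third pair, 4349 and 2370 with the exon-share set, 4284 and 2374 with the replicate block, 4049 and 2109 with only the groups compared, 2591 and 1648 with voom, and 3240 and 1110 with no filter.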
